A study of Nothobranchius furzeri with 16 samples.

Results

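A group of 60 genes was examined whose mean fasting difference in adipose tissue had one sign in young and the opposite sign in old Nothobranchius furzeri, the turquoise killifish, an annual fish with a short life. They were chosen from 18606 fish genes by a fixed rule on the deposited values. A gene was open to the rule if its mean over the 16 fish was at least 50 normalized units and it was not among the 50 genes with the highest means, which left 14309 open genes. For each, the fasting difference was the mean of log2(value + 1) in fasted minus that in refed fish, taken apart in young and in old fish. Of the open genes, 3436 had differences of opposite sign and 543 had both differences at or above 0.25 in size. The 60 members are those with the largest smaller difference. Of these, 59 were higher in fasted than in refed young fish and lower in fasted than in refed old fish, and 1 showed the reverse.

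The fish were wild-type males of the laboratory strain GRZ-AD, with 4 separately housed fish in each of 4 groups, and no transgene or other allele was involved. Young fish were 7 weeks and old fish 18 weeks of age. Young fasted and old fasted fish went without food for 72 h, while young refed and old refed fish were fasted for the same time and then fed for 24 h. All groups thus passed through a fast, and none was fed throughout. RNA was extracted from whole adipose tissue and sequenced, and reads of ribosomal and transfer RNA were removed.

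Adipose tissue stores energy as triglyceride. During a fast, lipases of the fat cell release fatty acids for use in other tissues, and insulin released after a meal stops this release and restores fat synthesis. Whole adipose tissue also holds blood vessels, immune cells and connective tissue cells, whose RNA is measured together with that of the fat cells, so a lower level in bulk RNA can come from fewer cells of a type or from less RNA per cell, and the data cannot tell these apart. The table names genes by Ensembl identifier only. The files do not pair identifiers with symbols, and 0 of them matched the reference table of killifish genes used here. The roles of the members, the pathways they belong to and the markers of adipose tissue were therefore not analysed here, and no sequence is shown.

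The deposited values were scaled so that the middle gene of each fish lay between 155 and 168 units. The column totals, which are not read numbers, were 21.0 to 28.3 M units in young and 14.3 to 21.3 M units in old fish. In the genes described here, young fasted replicate 4 and old refed replicate 3 most often held the highest value of all fish. Of the 59 members of the larger direction, 16 had their highest value of all 16 fish in the former and 14 in the latter. A further 13 had it in old refed replicate 4, and none had it in a young refed or an old fasted fish. For the 59, the rule took genes with high means in young fasted and old refed fish. These counts therefore depend on the choice of the members and are a description. Their share over the open genes was not taken. Among old refed fish, replicates 3 and 4 were each the highest in 19 of the 59. Among young refed fish, replicate 4 was the highest in 37 of the 59. When young fasted replicate 4 was left out, 50 of the 59 still had both differences at or above 0.25 with the same signs, and 54 did so without old refed replicate 3. Results are therefore given with and without these fish where they rest on them.

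**Figure D1:**
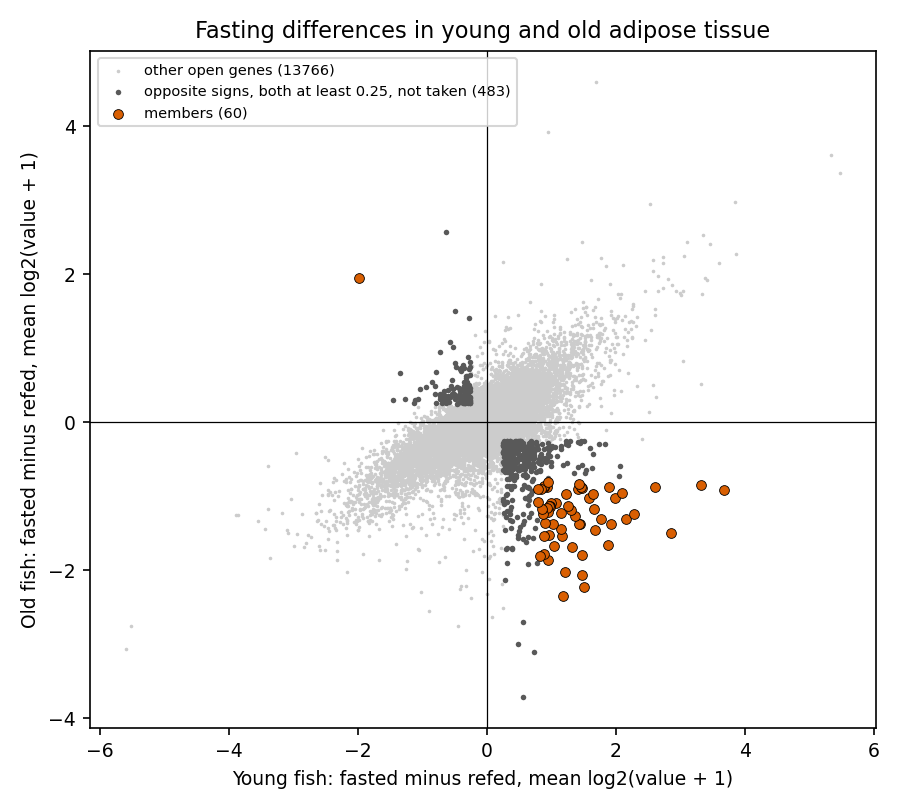
Each point is 1 of the 14309 genes open to the rule, with its fasted minus refed difference in young fish on the horizontal axis and in old fish on the vertical axis, both as means of log2(value + 1). The 60 members are orange, the other 483 genes past 0.25 with opposite signs are dark grey, and 59 of the members lie at the lower right with 1 at the upper left.

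The differences that chose the members are given first, as a description. Among the 59 genes of the larger direction, the difference in young fish ran from 0.80 to 3.68 on the log2 scale with a median of 1.23. In old fish it ran from -2.35 to -0.80 with a median of -1.19. The larger of both differences was that of young fish in 30 members and that of old fish in 29. The last member taken had a smaller difference of 0.80 (0.7963), and the first gene not taken had 0.79 (0.7876), so the edge of the group is not a gap in the data. The direction of the 59 was the more frequent one also before the largest were taken, since 416 of the 543 genes past 0.25 had it and 127 had the reverse. This balance moved with the scaling, to 721 against 24 on log2 of CPM + 1 (each value relative to its column total), 239 against 33 relative to the spike-in rows, 440 against 99 with upper-quartile scaling and 355 against 175 with the median of ratios.

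The rule limits the order of the group means of the 59. The highest can only be that of young fasted or old refed fish, and the lowest only that of young refed or old fasted fish. The old refed mean of log2(value + 1) was the highest of the 4 groups in 45 members and the young fasted mean in 14, while the lowest mean was that of young refed fish in 46 and of old fasted fish in 13. Old refed fish had a higher mean than young refed fish in all 59. In fasted fish, the old mean was above the young mean in 22 of the 59. The rule itself makes the old minus young difference larger in refed than in fasted fish for each of the 59, so the order is a description.

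Individual fish did not follow these means closely. Every young fasted fish lay above every young refed fish in 12 of the 59 members, or 20.3%, against 26.2% of all open genes. Every old fasted fish lay below every old refed fish in 4 of the 59, or 6.78%, against 17% of open genes. No member was free of overlap at both ages, while 0.0419% of open genes in this direction, or 6 genes, were. The rule used these values, so the counts describe the members and are no test. By limma, a linear model fitted across all 18606 genes with the 16 fish in 1 fit, 11 members were called higher in young fasted fish at an adjusted p under 0.05 (27.1% of all genes were). In old fish 5 were called lower when fasted (13.9% of all genes were), and 11 were called for the difference between the ages in this direction (4.37% of all genes were). Of the 14309 open genes, from which the members came, 4157, 2344 and 653 were called in the same order. Nothing is read from these calls, since the same contrasts chose the members. For 9 of the 60, both differences were more than 2 times their standard errors, a share not taken over the open genes. The same differences chose the members, so these 9 are a description and not a list of firmer members. The standard errors of a gene, here and below, rest on a spread pooled over all groups, so they are the same at both ages. They do not measure the spread of each comparison, which differed between groups in the members. Opposite fasting responses at the 2 ages were therefore seen in the group means of the members, but in no member did all 16 fish show them.

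Of the 483 genes past 0.25 that were not taken, 25 had no overlap between fasted and refed fish at either age. In 21 of these the direction was the reverse one, lower in young fasted and higher in old fasted fish, which only 1 of the 60 members had. Their differences were smaller than those of the members, with a median of -0.41 in young and 0.34 in old fish, and so was their spread between fish of a group, with a median SD of 0.15. The other 4 had the direction of the 59, with a median of 0.78 in young and -0.56 in old fish. With no minimum size of the difference, 36 of all open genes, or 0.252%, had no overlap at both ages in the reverse direction. The 60 members, ranked by the size of the difference, thus include none of the genes in which all 16 fish followed the opposite pattern.

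The members were among the genes that varied most between fish of the same group. The SD within groups, pooled over the 4 groups on the log2(value + 1) scale, had a median of 1.38 over the 60 members (0.49 to 3.56) and 0.18 over the 14309 open genes. It was 0.43 over the 483 genes not taken. By this SD 46 of the 60 members were in the highest 1% of open genes and 59 in the highest 5%. In 42 of the 60, the SD within groups was larger than the smaller of the 2 differences. The gene with the largest SD of all open genes, 3.56, was a member.

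The spread was not equal in the groups. For the 59, the median SD was 1.60 in old refed, 1.10 in young fasted, 0.95 in old fasted and 0.82 in young refed fish. The groups with the higher means were thus also the more variable ones. The rule took genes with high means in these groups, and a single high fish raises both the mean and the SD of its group. The order of the spreads is therefore a description and not independent of the choice. Over all open genes the same medians were nearly equal, at 0.18, 0.15, 0.15 and 0.18.

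**Figure D2:**
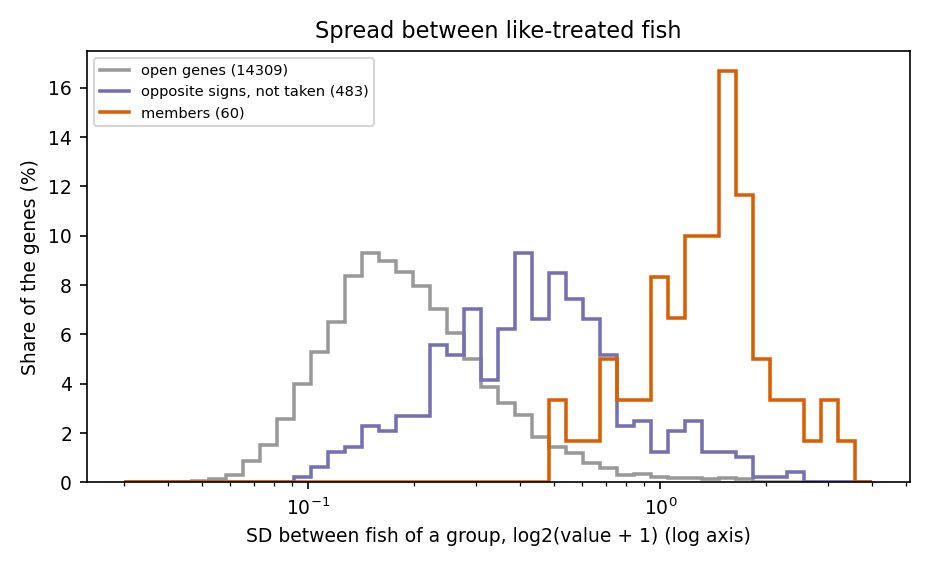
The horizontal axis is the SD between fish of a group in log2(value + 1), pooled over 4 groups and drawn on a log axis, and the vertical axis is the share of the genes of each list. The members (orange, median 1.38) lie to the right of the 483 genes with opposite signs that were not taken (purple, median 0.43) and of all open genes (grey, median 0.18).

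Many members passed the minimum mean of 50 units through 1 or a few fish. The median over the 16 fish was under 50 units in 31 of the 60 members, against 1.75% of open genes. More than 50% of the sum over all 16 fish came from 1 fish in 11 members, against 0.175% of open genes (25 genes). That fish was young fasted replicate 4 in 9 of the 11. Across the 59, the highest fish held a median of 35.2% of the sum, from 12.1% to 95.6%, where the median open gene had 8.74%.

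The first of the 59 by rank was ENSNFUG00015009006, at rank 2 of the 60. Its values in young fasted replicates 1 to 4 were 76.2, 12.8, 16.4 and 84.7 units, and in young refed replicates 14.0, 5.38, 8.46 and 8.31. In old fasted replicates they were 9.78, 6.37, 138 and 27.6 units, and in old refed replicates 536, 167, 30.9 and 10.0. The young groups overlapped by 1 fish each, and in old fish both groups held low and high values. The difference was 1.89 in young and -1.66 in old fish on the log2 scale, with a standard error of 1.08 for each. Without old refed replicate 1 the difference in old fish was -0.72. On log2 of CPM + 1 the differences were 0.86 in young and -1.42 in old fish.

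ENSNFUG00015001249, at rank 3, had values of 75.7, 6.35, 17.6 and 67.1 units in young fasted and 10.9, 6.45, 2.62 and 33.7 in young refed replicates 1 to 4. In old fish they were 39.6, 45.3, 73.6 and 23.1 when fasted and 434, 236, 84.1 and 179 when refed. Each old refed fish was above each old fasted fish, while the young groups overlapped. The differences were 1.50 in young and -2.22 in old fish (standard error 0.76 each). On log2 of CPM + 1 they were 0.63 and -2.13.

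The only member of the reverse direction, ENSNFUG00015004755, had the largest smaller difference of all and so rank 1. Its values were 5.79, 114, 186 and 0 units in young fasted and 122, 91.7, 114 and 26.0 in young refed replicates 1 to 4. In old fasted fish they were 272, 61.4, 43.4 and 166 units, and in old refed fish 44.3, 77.4, 0 and 159.9. It was listed at 0 in young fasted replicate 4 and in old refed replicate 3, and the other fish of these groups overlapped with those they were compared with. The differences were -1.98 in young and 1.95 in old fish (standard error 1.58 each). Without young fasted replicate 4 the young difference was -0.55, and without old refed replicate 3 the old difference was 0.35. With 0.1 added to each value in place of 1, the differences were -2.84 in young and 2.77 in old fish. With 5 added they were -1.30 and 1.38, and on log2 of CPM + 1 they were -0.70 and 0.70. On the means of linear values this gene no longer met the rule.

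**Figure D3:**
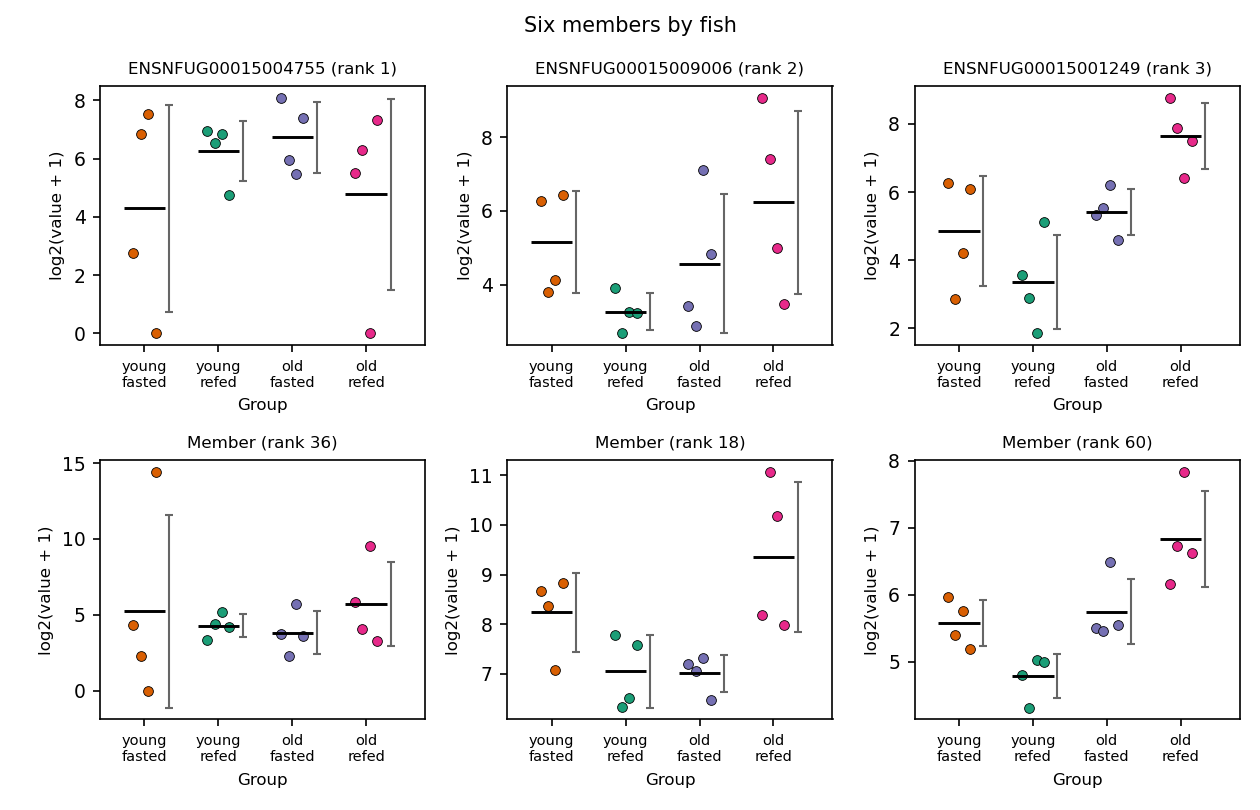
Each panel is 1 member, with a point for each of the 4 fish of a group in log2(value + 1), a black line at the group mean and a grey bar of 1 SD to each side of it. In the member at rank 36 the young fasted mean is set by 1 fish at 21717 units, while in the member at rank 60 each young fasted fish lies above each young refed fish and only 1 old fasted fish overlaps with old refed fish.

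The members were then grouped by how they deviated from their group means across the 16 fish. These deviations do not contain the differences between group means that the rule used. They are still not free of the choice, since a single high fish can both move a group mean and set the deviations of a gene. The grouping, by average linkage at a distance of 0.6 (1 minus the correlation), was set after the values had been seen, so it is a description with no test. It gave 6 sets of at least 5 members that held 56 of the 60, all of the larger direction. Between pairs of the 59 members the median correlation of the deviations was 0.14, and 14.8% of pairs had a correlation of at least 0.7, against a median of 0.004 and 1.18% over all open genes. Over the 483 genes not taken it was 0.04, with 4.94% of pairs. The deviations come from the same 16 libraries, so genes that share a deviating fish are not separate observations. Within single sets the median correlation was 0.71 to 0.87, lowest in set D and highest in set C. The sets were cut on these same correlations, so high values within a set follow from the grouping.

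**Figure D4:**
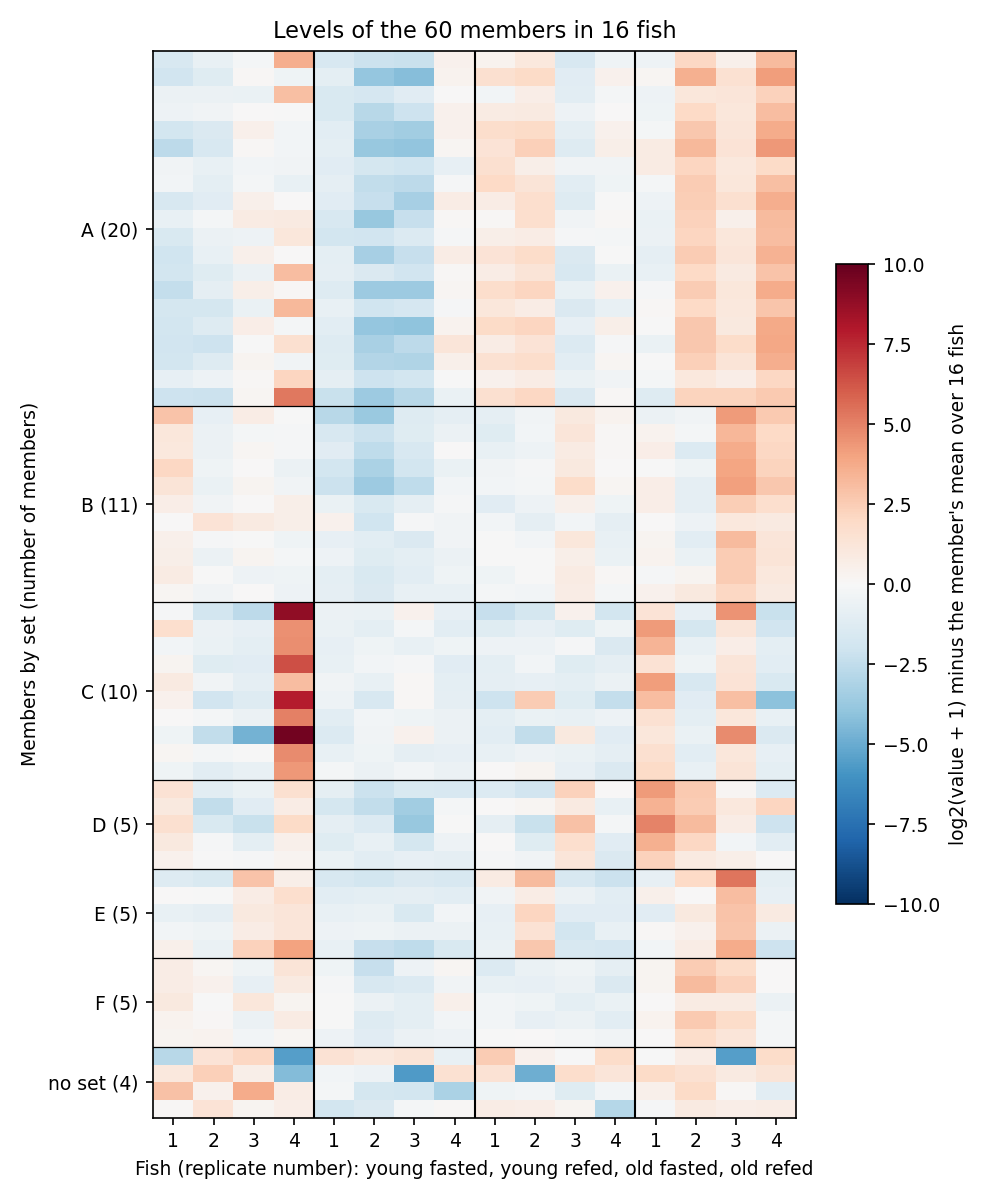
Each row is a member and each column a fish, with the young fish before the old and, at each age, the fasted before the refed fish, and the colour giving log2(value + 1) minus the member's mean over 16 fish. Rows are in the 6 sets and 4 members outside them, and within a set the members share their high and low fish, such as young fasted replicate 4 in set C.

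Set A, the largest, held 20 members. Its level in a fish, the mean of log2(value + 1) of its members after each member's mean over the 16 fish was taken off, was highest in old refed replicate 4 at 3.21 and in old refed replicate 2 at 2.32. The lowest levels were -2.79 and -2.63 in young refed replicates 2 and 3. Young refed replicate 4, at 0.19, was above 3 of the 4 young fasted fish, and old refed replicate 1, at -0.28, was below 3 of the 4 old fasted fish. The member of this set at rank 24 had 164, 219, 839.9 and 502 units in young fasted and 283, 61.0, 52.4 and 827 in young refed replicates 1 to 4. In old fish it had 2029, 2248, 304 and 788 units when fasted and 514, 3878, 1420.3 and 7807 when refed. The young groups overlapped in this member, with 2 refed fish among the fasted fish and 2 below them all, and its difference was 1.07 in young and -1.08 in old fish (standard error 0.96 each). Of the 20, 17 kept opposite signs past 0.25 without young fasted replicate 4 and 19 without old refed replicate 4. The median of the set in old fish was -0.67 without old refed replicate 4 and -1.82 without old refed replicate 1, in place of -1.19. In young fish it was 1.80 without young refed replicate 4, in place of 1.06.

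Set B held 11 members and was highest in old refed replicates 3 and 4, at 3.01 and 1.69, with the other old refed fish at 0.24 and -0.47. In young fish its level was -0.28 to 1.02 when fasted and -2.18 to -0.45 when refed. It held 4 of the 12 members without overlap in young fish. Its member at rank 60 had the smallest SD within groups of all members, 0.49. This gene had 61.3, 41.4, 53.2 and 35.6 units in young fasted and 27.0, 18.9, 31.5 and 30.8 in young refed replicates 1 to 4. In old fish it had 44.4, 43.1, 88.6 and 45.9 units when fasted and 70.5, 105, 227 and 97.2 when refed. All young fasted fish were above all young refed fish, and old fasted replicate 3 was the only old fasted fish above an old refed fish. The differences were 0.80 in young and -1.08 in old fish (standard error 0.32 each). Without old refed replicate 3, 10 of the 11 members of the set kept opposite signs past 0.25, but the median difference in old fish was -0.57 in place of -1.24. Without old refed replicate 2 it was -1.90.

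Set C held 10 members and rested on young fasted replicate 4. Its level there was 5.91, against -1.37 to 0.22 in the other young fasted fish and -0.79 to -0.17 in young refed fish. In old refed fish it was 2.39 and 2.04 in replicates 1 and 3 and below 0 in replicates 2 and 4, the lower being -1.58 in replicate 4. The member at rank 36 showed this most. It had 18.8, 3.84, 0 and 21717 units in young fasted, 9.32, 20.5, 35.4 and 17.1 in young refed, 12.1, 3.82, 51.7 and 11.3 in old fasted and 57.8, 15.9, 728 and 8.89 in old refed replicates 1 to 4. Young fasted replicate 4 alone was above all young refed fish and held 95.6% of the sum over 16 fish, and young fasted replicate 3 was listed at 0. Without young fasted replicate 4, the median difference of the set in young fish was -0.07 in place of 1.56, and 4 of its 10 members kept opposite signs. Without old refed replicate 1, the median difference in old fish was -0.39 in place of -1.18. It was -0.72 without old refed replicate 3 and -1.94 without old refed replicate 4, and without young fasted replicate 3 the median in young fish was 2.34.

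Sets D, E and F held 5 members each. Set D, to which both named genes of the larger direction belong, was highest in old refed replicates 1 and 2 at 3.70 and 2.26 and in old fasted replicate 3 at 1.81. Its member at rank 30 had 505, 358, 349 and 445 units in young fasted and 241, 177, 215 and 201 in young refed replicates 1 to 4. In old fish it had 339, 301, 862 and 134 units when fasted and 1866, 687, 557 and 379 when refed. All young fasted fish were above all young refed fish, and 1 old fasted fish was above 3 of the old refed fish. All 5 members of set D kept opposite signs past 0.25 in each of the 16 fits that left out 1 fish, but the size of the differences rested on single fish. The median in old fish was -0.71 without old refed replicate 1 and -1.08 without old fasted replicate 2, in place of -1.66, and the median in young fish was 0.92 without young fasted replicate 1, in place of 1.48.

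Set E was highest in old refed replicate 3 at 3.55 and in old fasted replicate 2 at 2.04. Its member at rank 12 had 9.17, 7.65, 179.9 and 36.3 units in young fasted, 7.26, 5.95, 8.00 and 7.31 in young refed, 43.2, 222, 7.00 and 4.53 in old fasted and 12.9, 94.3, 1007 and 11.2 in old refed replicates 1 to 4. The young refed fish were alike in this gene, while each of the other groups held both low and high fish. Without old refed replicate 3, the median of set E in old fish was -0.23 in place of -1.13, and 2 of its 5 members met the rule. That median was -1.84 without old fasted replicate 2 and -0.74 without old fasted replicate 3, and the median in young fish was 0.88 without young fasted replicate 3, in place of 1.59.

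Of the 6 sets, F had the smallest spread in old fasted fish. Its level was -0.54, -0.55, -0.56 and -0.90 in old fasted replicates 1 to 4, and 0.19, 2.20, 1.59 and -0.17 in old refed replicates. It held 3 of the 4 members without overlap in old fish. The member with the largest difference in old fish, at rank 18, was one of them, with 145, 132, 158 and 87.3 units in old fasted and 290.4, 2139, 1159 and 253 in old refed replicates. In young fish it had 405, 328, 135 and 456 units when fasted and 219, 80.1, 90.0 and 189.9 when refed. Thus 3 of 4 young fasted fish were above all young refed fish. Its differences were 1.19 and -2.35 (standard error 0.59 each). All 5 members of set F met the rule in each of the 16 fits that left out 1 fish, and their medians moved by less than 1.5 times.

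The 4 members outside the sets were those of ranks 1, 20, 40 and 57. The member at rank 40 had the largest difference in young fish, with 247, 42.1, 412 and 51.7 units in young fasted and 26.9, 8.63, 7.98 and 2.60 in young refed replicates 1 to 4. In old fish it had 22.5, 24.9, 12.5 and 25.4 units when fasted and 43.4, 117, 33.1 and 14.5 when refed. The young groups did not overlap, and 3 of 4 old refed fish were above all old fasted fish. Its differences were 3.68 in young and -0.92 in old fish (standard error 0.75 each).

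**Figure D5:**
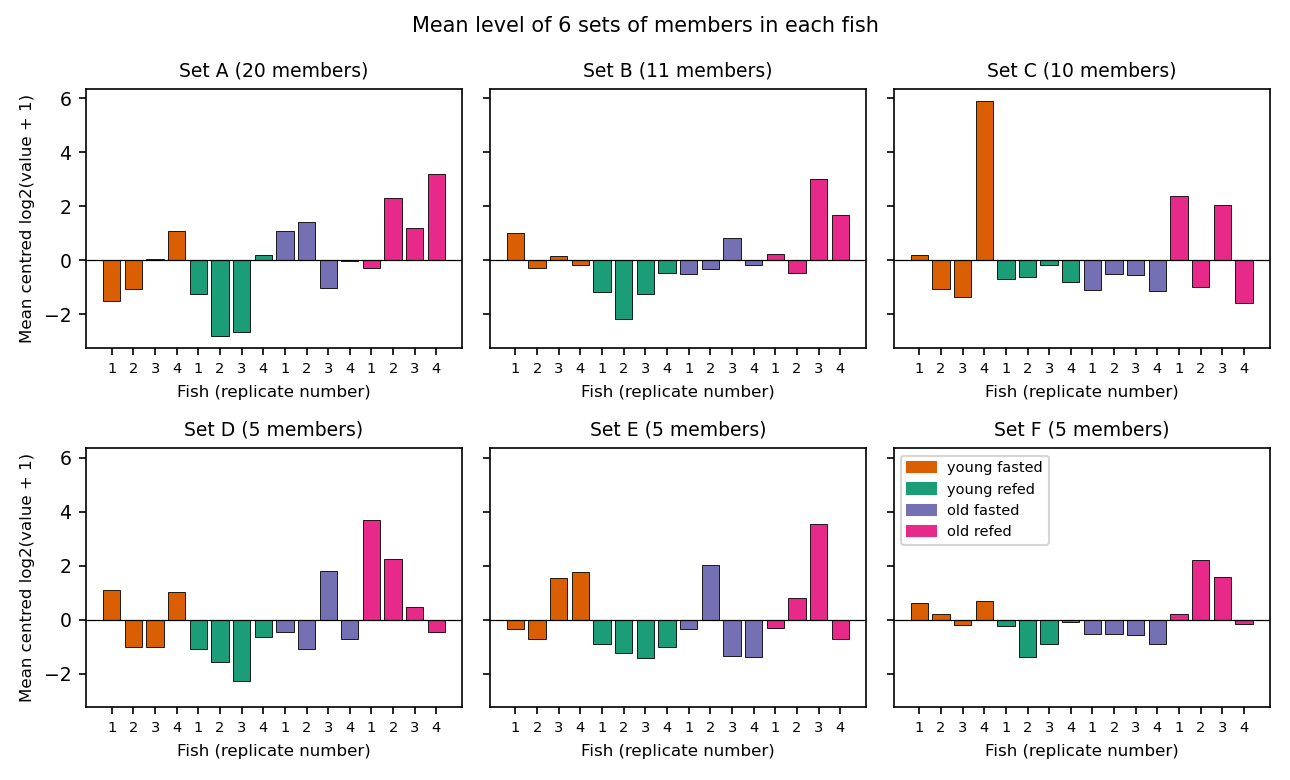
Each bar is 1 fish, coloured by group, and its height is the mean over the members of a set of log2(value + 1) minus each member's mean over 16 fish. Some old refed fish are high in every set but not the same ones, with replicate 4 highest in set A (3.21), replicate 3 in set B (3.01), replicate 1 in set D (3.70), replicate 3 in set E (3.55) and replicate 2 in set F (2.20), while set C is highest in young fasted replicate 4 (5.91).

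The age of the fish, averaged over feeding, is the 1 comparison of groups whose contrast is orthogonal to both fasting differences in this balanced design. It set the mean of both old groups against the mean of both young groups. By limma with Benjamini-Hochberg adjustment over 18606 genes, 16 of the 60 members were higher in old fish at an adjusted p under 0.05. At this cut 0 members were lower, and of all genes 11.6% were called higher and 11.4% lower. Of the 14309 open genes, from which the members came, 1875 were called higher and 1982 lower. The estimate was above 0 in 46 of the 59, with a median of 1.03 over the 59, while the median of all genes was 0.01. The members were chosen on the same fish, and a high value in an old refed fish both lowers the fasting difference in old fish and raises the age average. With the larger spread of the members in old refed fish, this count is therefore not independent of the choice. The minimum mean of 50 units adds to this, since 9 of the 60 members, 3 of them among the 16 called, had a group mean of at least 50 units in old refed fish only. In 23 members, 7 of them among the 16, all 4 group means reached it.

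The genes called for age were not spread evenly over the sets. Of the 16 genes called, 12 were in set A, 3 in set B and 1 in set D. The members of set A share their high and low fish (median correlation of the deviations 0.82), so its 12 calls are not separate observations. In set A the age average ran from 0.80 to 3.22 with a median of 2.01, and in set C from -0.66 to -0.01. The member with the smallest adjusted p, at rank 29 in set A, had 193, 149.7, 205 and 199 units in young fasted and 115, 74.3, 61.3 and 137 in young refed replicates 1 to 4. In old fish it had 780.2, 385, 194 and 196 units when fasted and 438, 1095, 514 and 946 when refed. All young fasted fish were above all young refed fish, and all old refed fish were above all 8 young fish. Its age average was 1.86 on the log2 scale (standard error 0.29, adjusted p = 0.000299 from limma). This member was picked for its small adjusted p. Its high old refed values raised its age average and also lowered its fasting difference in old fish, which the rule used. Its p-value is therefore no independent support for an age difference. For ENSNFUG00015001249 the age average was 2.42 (standard error 0.54, adjusted p = 0.00434 from limma, and 5.7e-05 to 0.0112 over 26 other settings). The smallest of these was on log2 of CPM + 1, where 78.7% of all genes were called higher in old fish. The mean of this gene was 233 units in old refed fish and 13.4 to 45.4 in the other groups. It thus met the minimum mean only through the group that also raises its age average, and these p-values are no independent support. For ENSNFUG00015009006 the age average was 1.19 (0.76), with an adjusted p of 0.291 from limma. This gene also met the minimum mean only through old refed fish, at 186 units against 9.03 to 47.5 in the other groups. For ENSNFUG00015004755 the age average was 0.48 (1.12), with an adjusted p of 0.811 from limma.

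In refed fish alone, every old fish was above every young fish in 14 of the 59 members, or 23.7%, against 11.1% of open genes. This comparison shares its fish with the rule and is given as a description. The counts of the age comparison moved with the scaling. On log2 of CPM + 1 the median of all genes moved to 0.41, and 32 of the 60 members were called higher in old fish, against 78.7% of all genes. With spike-in scaling the median moved to 0.31, and 28 of the 60 members were called, against 53.6% of all genes. On both scales the share of members called was thus below that of all genes, and 0 members were called lower. Without 1 fish, on the deposited values, 12 to 21 of the 60 members were called higher, against 9.42% to 12.0% of all genes. The part of the lower column totals of old fish in these calls was not tested.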

How the data were processed

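Adipose RNA of 16 fish was analysed. Per the authors, reads of ribosomal and transfer RNA were removed and the rest was pseudo-aligned with kallisto 0.45.0 and compared with DESeq2 1.24.0. The authors deposited 1 table with a normalized signal for each gene, never negative and not whole. The sources used here do not state its scaling, and depth in reads is unknown, so no interval for counting error is given. Columns were matched to fish by name, and 0 were left unused. The 74 ERCC spike-in rows entered no test. Replicates are separate fish.

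The members and tests were chosen with earlier results of these data known. For 18606 genes, log2(value + 1) went into limma 3.58.1 (R 4.3.3, trended eBayes), 16 fish in 1 fit of 4 groups without a block, with p-values adjusted by Benjamini-Hochberg. The fit was tested on simulated data with independent normal values and the same SD in all groups of a gene. The unequal spread, the shared deviations and the choice of the members were not simulated. Python 3.11.15, numpy 2.4.6, pandas 2.3.3, scipy 1.17.1 and matplotlib 3.10.9 served for the rest. Named by identifier are the first 2 members of each direction by rank, of which the reverse one holds 1. Other members are given by rank, and those with values were chosen after the values were seen. Marker lists could not be applied without symbols.

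Alternatives were log2 of CPM + 1 (from the column totals), scaling to 42 spike-in rows, median-of-ratios and upper-quartile scaling, pseudocounts of 0.1 and 5, genes with a mean of at least 50 units, the replicate number as a block, robust eBayes, group medians, means of linear values and each fish left out. Leaving out 2 fish together was chosen after seeing the data.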

Additional observations from a re-analysis of the deposited data

Results flagged for a closer look

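Within the groups of 4 fish, 36 were examined for a fish apart from the other 3 (3 named members and 6 sets, 4 groups each), and 1 was found. Set F had a level of -0.8971 in old fasted replicate 4, against -0.54 to -0.56 in the other old fasted fish and the gap was 0.941 of the range of the group, above Dixon's critical value for 4 samples. By chance about 1 in 20 such groups would show this. Over the single members, 11 of 240 groups had a fish past this value, or 4.58%, against 5.18% over the open genes. In young fasted fish, 5 of the 60 members had a high fish past it, or 8.33%, against 2.89% of open genes. That fish was replicate 4 in all 5. The rule took members with high young fasted means, so this count is a description.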

How the results depend on the processing

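With each fish left out in turn, 50 to 59 of the 59 members and 1 of the 1 reverse member met the rule, 12 to 21 members were called higher in old fish for the age average and 0 were called lower, and over all genes 1752 to 2239 were called higher and 1733 to 2106 lower. In 11 of these 16 fits all 60 kept opposite signs. The lowest numbers meeting the rule were 50 without young fasted replicate 4 and 54 without old refed replicate 3, and 46 of the 59 met it without both. With the rule applied anew, 42 and 41 of the 60 were taken again without these 2 fish, 37 on log2 of CPM + 1, 31 relative to the spike-in rows and 45 with group medians. The reverse member did not meet the rule with means of linear values (0 genes), and its age average was -0.24 to 1.27 with 1 fish left out (-0.24 without young fasted replicate 4).

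On log2 of CPM + 1, 32 members were called higher in old fish, and 14639 of all genes higher and 295 lower. Relative to the spike-in rows these were 28, 9975 and 499. The members past 0.25 in the direction of the 59 were then 58 and 48. With the replicate number as a block, 18 members were called higher, and 1931 of all genes higher and 1923 lower, all within 1.5 times the values without it. No clear pairing by number was seen in the deviations. Of 24 same-numbered pairs, 3 had a correlation over 0.1 (all pairs -0.28 to 0.23), and 2 of 16 fish correlated best with a fish of their own number. Whether same-numbered fish shared a step of handling is not given by the labels and was not tested. Other scalings, pseudocounts, the minimum mean and robust eBayes gave 15 to 18 members called higher, against 9.94% to 13.8% of the genes tested. The 18 members and the 13.8% were those with the minimum mean, over 14359 genes. Most members are low or rest on few fish, which limits the precision.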
